A study of Homo sapiens with 4 samples.

Results

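The human ribosomal RNA genes (rDNA) are a tandem array in which each copy of the transcribed gene is followed by an intergenic spacer, and this spacer is described here from its CpG methylation. The members were all CpGs of the added rDNA contig from base 13351 to base 41899, a stretch of 28549 bases that ends shortly before the promoter of the next gene copy. The rule sets them by position alone and uses no methylation value, although it was chosen with earlier results of these data known. The spacer held 1267 CpGs in any library, of 3253 on the whole contig and 27754404 in the whole series. Each library listed between 1263 and 1267 of them, and 1261 were listed in every library. Their mean methylation level was 56.6% in wild-type cells and 54.6% in cells without ZNF274. This gap between group means was larger than that between the wild-type replicates and smaller than that between the knockout replicates. Along the spacer the WT level of the tiles tested ran from 11.0% in a pyrimidine-rich tile to 87.8% in a tile towards its far end, and the largest fall without ZNF274 was at the terminators behind the gene, where depth was low.

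The levels come from EM-seq, a sequencing method that turns unmethylated cytosine into a base read as T by enzymes and leaves methylated cytosine to be read as C. It was applied to HEK293T cells, an established human embryonic kidney line, with 2 wild-type libraries (WT) and 2 libraries of cells without ZNF274 (ZNF274KO). The study asked what becomes of chromatin when ZNF274, a KRAB zinc finger protein linked to the nucleolus, is missing. The knockout was made with CRISPR-Cas9 and a pair of guides flanking the gene, followed by puromycin selection and sorting of single cells. The sources used here name no other treatment, and they do not say whether the libraries of a group are separate clones, cultures or DNA preparations, so p-values measure only the spread between these libraries.

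Ribosomal DNA lies in nucleolus organiser regions on the short arms of the acrocentric chromosomes and is read by RNA polymerase I. The spacer carries transcription terminators just behind the gene, simple repeats, stretches of pyrimidines and Alu elements, and further terminator and promoter elements lie near its far end. A human cell holds many copies, some active and some silent, and silent copies are known to carry more CpG methylation. Every level given here is therefore a mean over copies and cells, and a level between the extremes cannot be split into methylated and unmethylated copies from these counts.

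ZNF274 itself checked the labels. Its gene body carried 5158 reads over CpGs in WT 1 and 4274 in WT 2, but 0 in ZNF274KO 1 and 14 in ZNF274KO 2. Mean depth was 8.77 to 10.7 reads per autosomal CpG across the libraries. EM-seq protocols commonly add unmethylated lambda phage DNA and CpG-methylated pUC19 DNA as controls, and the files list contigs named L and P whose last CpGs, at 48501 and 2681, lie near the ends of these DNAs, although no source used here names them. The methylation level was 0.190 to 0.277% on contig L and 93.1 to 94.2% on contig P. On contig P, ZNF274KO 2 had 93.4%, between WT 1 (93.1%) and WT 2 (93.9%).

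The letters of the added contig are not in the files used here, so its sequence is shown from GL000220.1, an unplaced sequence of GRCh37 that holds an rDNA unit. Position and neighbouring bases matched 1132 of the 1267 spacer CpGs (89.3%) to bases 118823 to 148204 of that sequence. The match ran in pieces at 47 different offsets, so the copies differ by insertions and deletions. In each stretch shown, every CG of GL000220.1 is a CpG of the contig, but other letters can differ between both sequences. Coordinates are those of GRCh37, plus strand, and tiles are stretches of 500 bases numbered from the first base of the spacer. Capitals mark CG, and in the stretches of tiles 1 and 4 also the terminator word GGTCGACC, known as the core of the Sal box that the termination factor TTF-1 binds. The first pair of stretches shows the terminator repeats behind the gene. They lie at GL000220.1:119011-119090 for tile 1, the tile where the levels differed most between the groups, and at GL000220.1:119647-119806 for tile 4.

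Tile 1: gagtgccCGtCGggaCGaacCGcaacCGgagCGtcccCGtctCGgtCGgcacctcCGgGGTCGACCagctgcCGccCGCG
Tile 4: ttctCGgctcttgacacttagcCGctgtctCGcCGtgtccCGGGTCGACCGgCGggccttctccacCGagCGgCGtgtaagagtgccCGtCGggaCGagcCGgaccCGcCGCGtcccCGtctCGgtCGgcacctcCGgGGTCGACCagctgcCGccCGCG

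The terminator word reads the same on both strands. It occurred 7 times in the matched span, in stretches matched to tiles 1 to 4, and in 0.0116% of the 1126366 windows of 200 bases of chromosome 1. The stretches of tiles 1 and 4 share a run of 50 bases that holds 9 CpGs. In the copy of tile 1 those CpGs had levels of 41.1% (WT 1), 39.7% (WT 2), 18.7% (ZNF274KO 1) and 29.3% (ZNF274KO 2). In the copy of tile 4 the levels were 25.1%, 32.7%, 22.99% and 25.5% in the same order. Both ZNF274KO libraries were thus below both WT libraries in the first copy but not in the second, and depth was 51.8 to 105 reads per CpG in the first copy and 409 to 494 in the second.

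The next stretches show the lowest tile and a repeat within the spacer. Tile 19 (GL000220.1:129261-129460) had the lowest WT level of the tiles tested. Tiles 20 and 29 (GL000220.1:129526-129725 and GL000220.1:133783-133982) hold copies of one sequence.

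Tile 19: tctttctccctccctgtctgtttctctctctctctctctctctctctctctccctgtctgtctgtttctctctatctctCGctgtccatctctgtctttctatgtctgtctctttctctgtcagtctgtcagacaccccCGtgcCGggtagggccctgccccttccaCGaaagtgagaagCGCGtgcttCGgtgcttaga
Tile 20: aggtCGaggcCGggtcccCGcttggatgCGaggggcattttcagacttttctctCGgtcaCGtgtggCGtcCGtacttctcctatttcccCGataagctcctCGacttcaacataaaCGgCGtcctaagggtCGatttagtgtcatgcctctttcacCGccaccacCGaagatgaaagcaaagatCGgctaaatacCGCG
Tile 29: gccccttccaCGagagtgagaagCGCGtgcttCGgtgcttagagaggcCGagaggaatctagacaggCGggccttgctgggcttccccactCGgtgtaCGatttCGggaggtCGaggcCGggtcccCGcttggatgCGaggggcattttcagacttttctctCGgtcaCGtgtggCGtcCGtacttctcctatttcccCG

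The stretches of tiles 20 and 29 share a run of 92 bases with 9 CpGs. Those CpGs had levels of 26.3%, 27.1%, 26.2% and 23.5% in tile 20 (WT 1, WT 2, ZNF274KO 1, ZNF274KO 2) and 33.3%, 37.03%, 37.9% and 32.9% in tile 29. The copy in tile 29 was the higher one in all 4 libraries, at 279 to 415 reads per CpG against 740 to 937 in tile 20. Reads from such runs may be placed on either copy, and their part in these levels was not tested.

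Summed over the whole spacer, WT 1 had a level of 57.1% and WT 2 of 56.1%, while ZNF274KO 1 had 55.9% and ZNF274KO 2 had 53.4%. The groups did not overlap, WT being the higher, but ZNF274KO 1 lay close to WT 2 and ZNF274KO 2 stood apart below. The WT mean was 56.6% ± 0.642 and the ZNF274KO mean 54.6% ± 1.78 (SD, n = 2), or -1.98 percentage points from WT to ZNF274KO. It was -0.719 points without ZNF274KO 2 and -3.23 without ZNF274KO 1. The exact two-sided permutation test over libraries gave p = 0.333, the smallest value that 2 against 2 allows. The counts behind these levels were 677178 to 937949 reads, and the 95% Wilson intervals were at most 0.238 points wide. These intervals cover counting error only, and they can be too narrow even for that. They treat all counts as independent, although a read that spans several CpGs counts at each and duplicated reads are not molecules. Replicates of a group differed by far more than this, by 0.908 points in WT and 2.51 points in ZNF274KO.

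The autosomes showed a smaller difference with a similar low library. Their level was 60.4%, 61.5%, 61.4% and 59.5% (WT 1, WT 2, ZNF274KO 1, ZNF274KO 2), and the groups overlapped (difference -0.512 points, exact permutation p = 0.667). Spacer minus autosomal level was -3.32, -5.36, -5.48 and -6.13 points in the same order. Both ZNF274KO libraries were again below both WT libraries, with a difference of -1.46 points (exact permutation p = 0.333). Without WT 1, the library with the highest spacer level, the centred difference was -0.444 points.

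The transcribed part, which precedes the spacer on the contig and encodes the ribosomal RNAs, was much less methylated. Its level was 26.6%, 28.3%, 21.0% and 25.1% over 1846 CpGs, and the spacer exceeded it by 30.5, 27.8, 34.9 and 28.3 points in the same order of libraries (WT 1, WT 2, ZNF274KO 1, ZNF274KO 2). In the transcribed part, too, both ZNF274KO libraries were below both WT libraries, with a difference of -4.41 points (exact permutation p = 0.333). The lowest library differed between the parts of the contig, ZNF274KO 1 in the transcribed part and ZNF274KO 2 in the spacer. The gap between both parts was 2.44 points wider in ZNF274KO, with overlapping groups (exact permutation p = 0.667), and the difference turned to -0.884 points without ZNF274KO 1. The 140 CpGs after the spacer, at the promoter end, had levels of 29.6%, 31.2%, 29.4% and 29.1%.

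Read depth over the spacer was high in every library. Reads of all rDNA copies can fall on the single contig, and the part of copy number in this depth was not tested. Mean depth was 740 and 607 reads per CpG in WT 1 and WT 2 and 601 and 534 in ZNF274KO 1 and ZNF274KO 2. Relative to the autosomal mean depth of each library this was 69.2, 65.6, 60.2 and 60.9 times. Both ZNF274KO libraries were below both WT libraries, at 0.898 times the WT mean (exact permutation p = 0.333). Over medians the ratio was 0.939 and the groups overlapped. A change in the number of rDNA copies and a change in how well their DNA was recovered and mapped cannot be told apart from depth.

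The spacer was cut into 6 blocks of 5000 bases counted from its start, of which the last, block 6, held only 3549 bases. The ZNF274KO mean was lower in every block, and the groups did not overlap in blocks 1, 3, 5 and 6. The margin was narrow in block 3 (34.39% in WT 2, 34.26% in ZNF274KO 1) and in block 5 (64.04% and 64.03%). Of tiles of 5000 bases over the whole genome, 22.3% had both ZNF274KO libraries below both WT libraries. Block 1, the terminator side, had levels of 47.7%, 49.0%, 46.0% and 44.9% (WT 1, WT 2, ZNF274KO 1, ZNF274KO 2), a difference of -2.93 points (-5.21 points as an unweighted mean over CpGs). Block 2 had 63.8%, 63.0%, 63.6% and 60.6% (-1.32 points), and its difference was 0.206 points the other way without ZNF274KO 2. Block 3 was the lowest and the poorest in CpGs, with 34.9%, 34.4%, 34.3% and 31.6% (-1.70 points, and -0.370 without ZNF274KO 2) over 131 CpGs. Blocks 1 and 3 thus lay below the mean of the spacer in all 4 libraries, as did block 4. ZNF274KO 2 was the lowest library in each of blocks 1 to 3.

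Block 4 had 49.0%, 46.1%, 47.2% and 44.8% (-1.51 points), with -0.0868 points without WT 1 and -0.282 without ZNF274KO 2. Block 5 had 65.6%, 64.0%, 64.0% and 61.5% (-2.08 points, and -0.797 without ZNF274KO 2). Block 6, towards the next promoter, was the highest, with 70.3%, 69.9%, 69.0% and 66.6% (-2.31 points, and -1.10 without ZNF274KO 2). In these blocks ZNF274KO 2 was again the lowest library and WT 1 the highest, and in block 4 ZNF274KO 1 lay between both WT libraries. No block could reach an exact permutation p under 0.333.

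**Figure D1:**
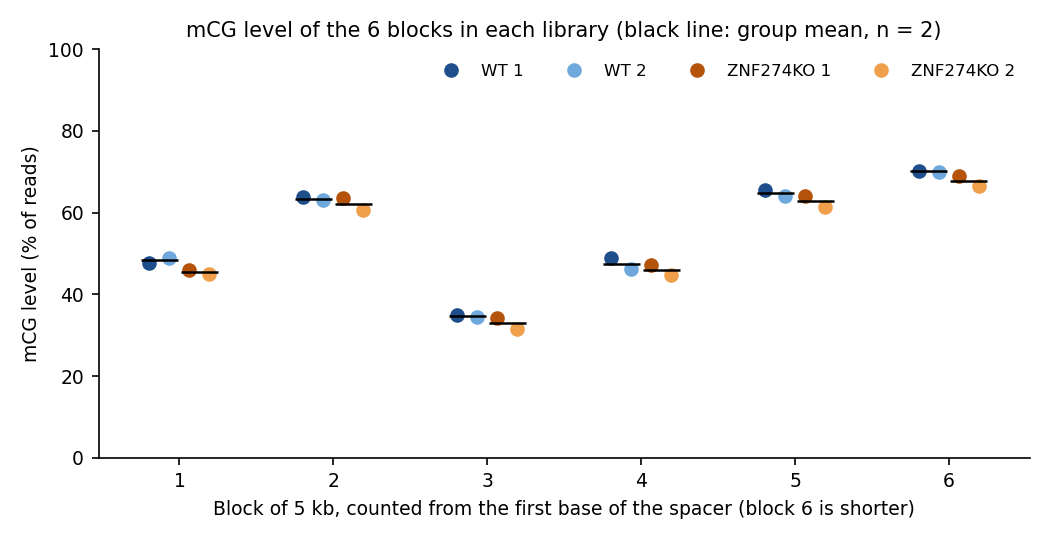
The vertical axis gives the mCG level (percent of reads) of each block on the horizontal axis, with 1 point for each library and a black line for each group mean (n = 2). Blocks are 5 kb long, except block 6 with 3549 bases. Block 3 is lowest (31.6 to 34.9%), block 6 highest (66.6 to 70.3%), and ZNF274KO 2 is the lowest point in all 6 blocks.

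Along the spacer the level rose and fell several times. Of the 50 steps from one tested tile to the next, 44 went the same way in all 4 libraries. Of 58 tiles, 51 passed the minimum of 20 reads and 5 CpGs in every library. Their WT levels ran from 11.0 to 87.8% with a median of 52.9%, with 22 tiles over 60%, 19 from 30 to 60% and 10 under 30%. Behind the gene, tiles 1 to 6 were between 18.5 and 40.6% in WT. Tiles 8 to 14 were high, between 64.1 and 79.7%. Tiles 19 and 20 fell to 11.0 and 28.0%, and tiles 29 to 31 stood at 19.3 to 29.9%. From tile 39 to tile 53 every tile had a WT level of at least 56.1%.

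**Figure D2:**
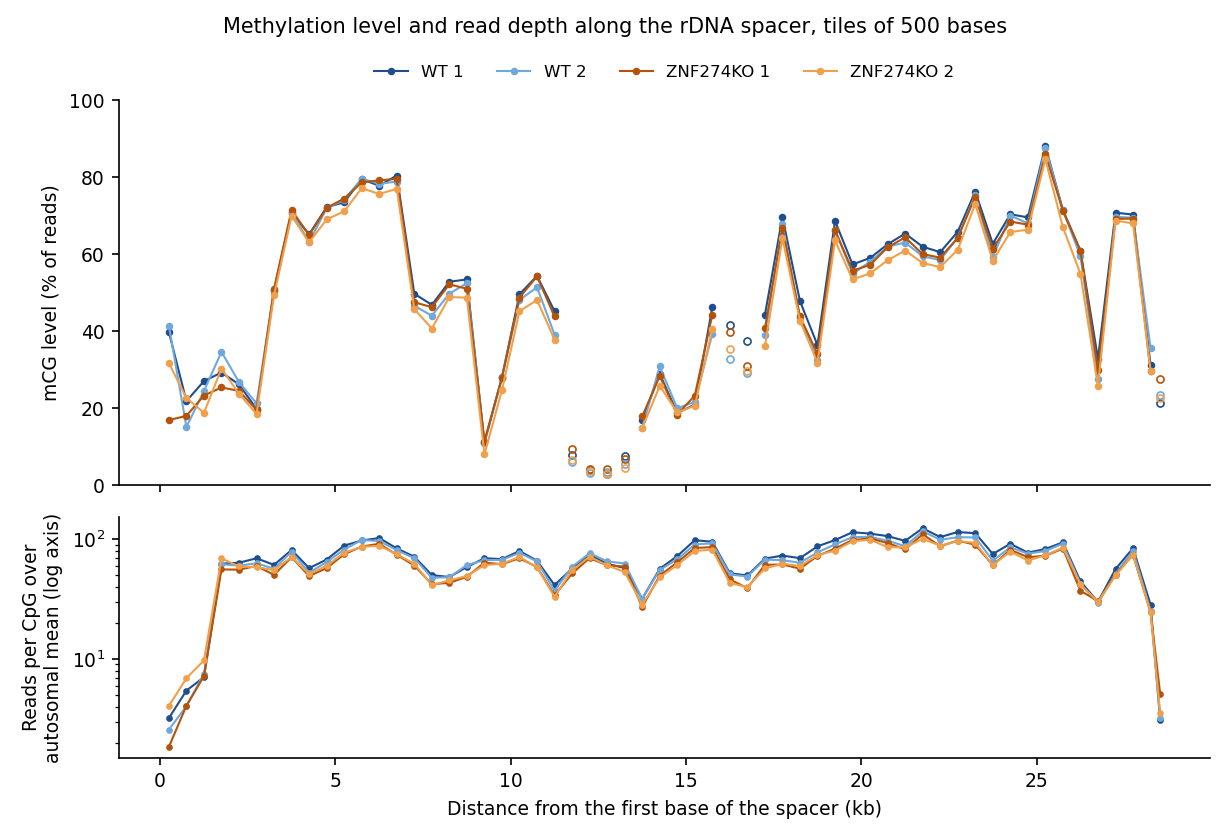
The upper axis gives the mCG level (percent of reads) and the lower axis the reads per CpG relative to the autosomal mean (log axis) in tiles of 500 bases against the distance from the first base of the spacer (kb), with a line for each library. Open circles are the 7 tiles that did not pass the minimum. The 4 lines part most in the first tile (16.9 to 41.4%), WT means of the tiles that passed run from 11.0 to 87.8%, the open circles of tiles 24 to 27 have WT means of 3.12 to 6.99%, and depth is low in the first 3 tiles and in the last.

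Pearson's r between libraries over the 51 tiles was 0.980 to 0.994, a description across tiles that share sequence and mapping. Across tiles, the WT level had a Spearman rho of 0.272 with the number of CpGs and 0.523 with relative depth, again as a description only.

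Depth varied along the spacer and was lowest at its start. Of the 51 tiles, 44 had over 40 times the autosomal depth and 4 had 10 to 40 times. The other 3 were tiles 1, 2 and 3, with mean depths of 28.1, 49.2 and 75.5 reads per CpG, or 2.93, 5.12 and 7.87 times the autosomal depth. The deepest tiles were 44, 41 and 40, at 1094, 1008 and 1003 reads per CpG. Relative to the autosomal depth of each library, depth was lower in ZNF274KO than in WT in 46 of the 51 tiles, with a median ratio of 0.894, and the exceptions were tiles 1 to 4 and 54.

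The ZNF274KO mean was lower than the WT mean in 48 of the 51 tiles and higher in 3. The median difference was -1.71 points (quartiles -2.38 and -1.28), against -0.527 points over all 2028327 tiles of 500 bases of the autosomes, X and the contig. In 21 spacer tiles (41.2%) both ZNF274KO libraries were below both WT libraries, and in 0 both were above. Over all tiles these shares were 20.1% and 14.7%. The fall was not particular to the spacer within the contig. Of the 81 tiles of the whole contig, spacer included, 40 were below and 1 above in this way, with a median difference of -2.15 points. The tiles of the spacer share 4 libraries and 1 locus, so they are not independent of one another.

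No spacer tile was called by edgeR's quasi-likelihood test with Benjamini-Hochberg adjustment over all tiles (0 of 51 at an adjusted p under 0.05). Of all tiles, 0.31% were called, 259 of them lower in ZNF274KO and 6026 higher, so most called tiles went the other way from the spacer. At an unadjusted p under 0.05 there was 1 spacer tile by edgeR, tile 1, where 6.44% of all tiles lay under that value. By limma there were 0 such spacer tiles (6.52% of all tiles), and limma also called 0 spacer tiles. With edgeR fitted to the 81 tiles of the contig alone, 2 spacer tiles lay under that unadjusted value, tiles 1 and 51. Of the 81 contig tiles, 9 lay under it and 0 were called. The unadjusted count thus depended on which tiles were fitted together.

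The difference between the group means was of the size of that between single libraries of a group. Its median size over the tiles was 1.72 points, against 1.57 points between WT 1 and WT 2 and 2.70 points between ZNF274KO 1 and ZNF274KO 2. Means of 2 libraries vary less than single libraries, so these sizes are not like for like. ZNF274KO 2 was below ZNF274KO 1 in 46 of the 51 tiles and the lowest of all 4 libraries in 45. ZNF274KO 1 was below both WT libraries in 23 tiles, between them in 21 and above both in 7, while ZNF274KO 2 was below both in 47. Without ZNF274KO 2, the median difference was -0.457 points, against 0.00770 over all tiles, and without WT 1 it was -0.980, against -0.763. It was -2.88 without ZNF274KO 1 (-1.04 over all tiles) and -2.54 without WT 2 (-0.345 over all tiles). With 1 library left out, the difference turned in direction in 20 of the 51 tiles, and it turned or moved by over 1.5 times in every tile but 5 and 51.

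**Figure D3:**
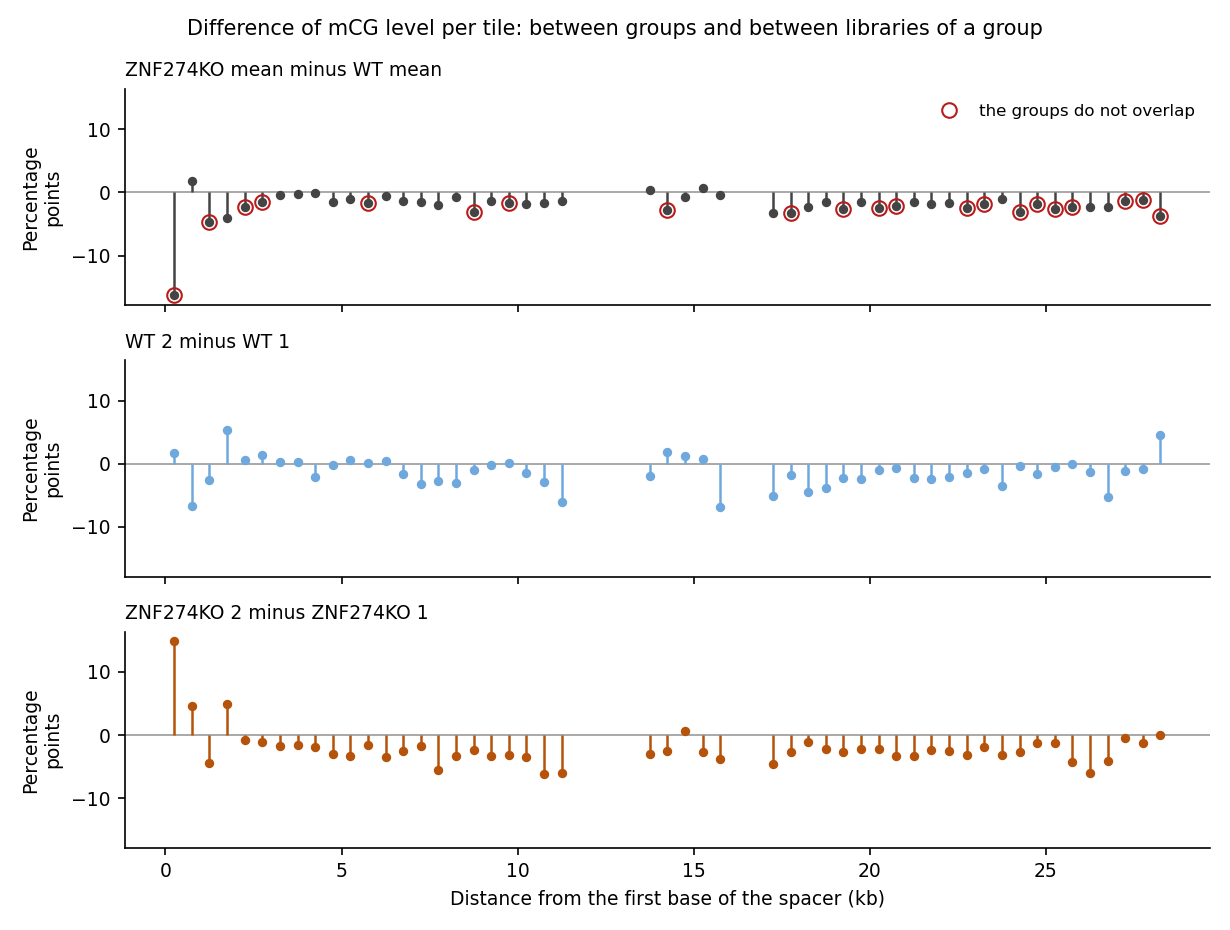
The panels give differences of mCG level in percentage points for the 51 tiles that passed, against the distance from the first base of the spacer (kb): ZNF274KO mean minus WT mean, WT 2 minus WT 1, and ZNF274KO 2 minus ZNF274KO 1. Red rings mark the 21 tiles in which the groups do not overlap. Apart from tile 1 at -16.3 points, differences between the groups lie within the range of the differences between replicates.

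The largest falls lay behind the gene, at the terminators. Tile 1, from 13351 to 13850 on the contig with 79 CpGs, had levels of 39.8% (WT 1), 41.4% (WT 2), 16.9% (ZNF274KO 1) and 31.7% (ZNF274KO 2). Summed over the tile, both ZNF274KO libraries were low but 14.8 points apart, with the lowest level in the library of lowest depth, 18.4 reads per CpG against 23.9 to 35.6 in the others. The fall was not uniform within the tile. At 13366, near its start, ZNF274KO 2 had 58.1%, above WT 1 (30.6%) and WT 2 (33.3%), while ZNF274KO 1 had 20%. Of the 153 CpGs in the first 1500 bases, 73 had under 20 reads in some library. The difference of tile 1 was -16.3 points, with an unadjusted p of 0.0350 and an adjusted p of 0.745 from edgeR's fit over all tiles. It was -8.89 points without ZNF274KO 1 and -23.7 without ZNF274KO 2. Tile 3 had 27.0%, 24.4%, 23.2% and 18.8% in the same order (-4.69 points), without overlap, and its adjusted p by edgeR was 0.948. Without ZNF274KO 2 its difference was -2.46 points.

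Tile 4 had 29.2%, 34.6%, 25.4% and 30.3% (-4.12 points), and here the groups overlapped (edgeR adjusted p = 0.994). Its difference was -1.43 points without WT 2 and -1.67 without ZNF274KO 1. Tile 2, between these falls, had the largest rise, with 21.8%, 15.1%, 18.0% and 22.6% (1.85 points) and overlapping groups, but its difference was -1.51 points without WT 2, -0.475 without ZNF274KO 2 and 5.21 without WT 1. Tiles 2 to 4 recur at a distance of 715 bases, at which 51.9 to 64.5% of their CpGs have a counterpart with the same neighbouring bases. The first 1500 bases together had levels of 30.5%, 28.3%, 20.9% and 23.6% (-7.13 points), both ZNF274KO libraries below both WT libraries. They carried only 6086 to 8592 reads a library, and without them the spacer had 57.3%, 56.4%, 56.2% and 53.7% (-1.87 points), still without overlap. Without the first block the levels were 58.9%, 57.6%, 57.9% and 55.3% (-1.69 points), and the groups overlapped.

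The other rises were small. Tile 31, which follows the low tiles 29 and 30, had 20.9%, 21.6%, 23.2% and 20.6% (0.652 points). Tile 28, at the edge of the pyrimidine stretch with 5 CpGs, had 16.8%, 14.9%, 17.8% and 14.8% (0.428 points). In both, ZNF274KO 1 was the highest library and ZNF274KO 2 the lowest, so the groups overlapped, and both differences turned with 1 library left out. Tile 32 stood out for its replicates, with 46.2% in WT 1 and 39.3% in WT 2 (WT 2 minus WT 1 was -6.90 points), and with 44.3 and 40.5% in the ZNF274KO libraries between them.

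The highest tiles were 51, 14 and 12. Tile 51 had 88.1%, 87.6%, 85.9% and 84.7% (WT 1, WT 2, ZNF274KO 1, ZNF274KO 2), without overlap and with a difference of -2.54 points (edgeR adjusted p = 0.986). Tile 14 had 80.4%, 78.9%, 79.6% and 77.0% (-1.39 points), and tile 12 had 79.5%, 79.6%, 78.6% and 77.1% (-1.66 points). ZNF274KO 2 was the lowest library in all 3 tiles, and the groups overlapped in tile 14 only. The lowest of the tiles tested, tile 19, had 11.1%, 10.8%, 11.3% and 7.96%, where ZNF274KO 1 was the highest library.

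The deepest tiles lay in the later, highly methylated stretch and had the most reads per CpG. Tile 44 had 61.9%, 59.4%, 60.01% and 57.7% (-1.83 points), tile 41 had 59%, 58.1%, 57.2% and 55.0% (-2.44 points) and tile 40 had 57.3%, 54.8%, 55.7% and 53.4% (-1.52 points). The groups did not overlap in tile 41, and in tiles 40 and 44 ZNF274KO 1 lay between the WT libraries.

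The pyrimidine stretch in the middle of the spacer had few CpGs and few reads of one strand. The 7 tiles below the minimum had 1 to 4 CpGs each and were 24 to 27, 33 and 34 further along, and 58 at the end of the spacer. Only tiles 24 and 25 of these have matched sequence, with 87.4 and 88.4% C or T, so the composition of the others is not known. The 4 CpGs of tile 25 had levels of 3.91%, 3.26%, 4.21% and 3.75% (WT 1, WT 2, ZNF274KO 1, ZNF274KO 2) at 627 to 794 reads per CpG. Only 4.54% of its reads came from the Watson strand, the strand on which the contig is written. These levels were the same within 1 point in all 4 libraries.

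Strand share moved with base composition. In the 8 tiles whose matched sequence was over 80% C or T, the Watson share of reads was 4.31 to 37% (median 22.9%), and in the 31 tiles under 60% it was 34.01 to 61.5% (median 49.0%). Spearman's rho between C or T content and Watson share was -0.554 over the 53 tiles with matched sequence, which share libraries and mapping. The level over all 4 libraries was 3.78 to 69.6% (median 17.7%) in the first kind of tile and 21.6 to 86.6% (median 61.2%) in the second. The part of the missing strand in these levels was not tested. In tile 25 the level was 2.93% on the Watson and 3.82% on the Crick strand.

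**Figure D4:**
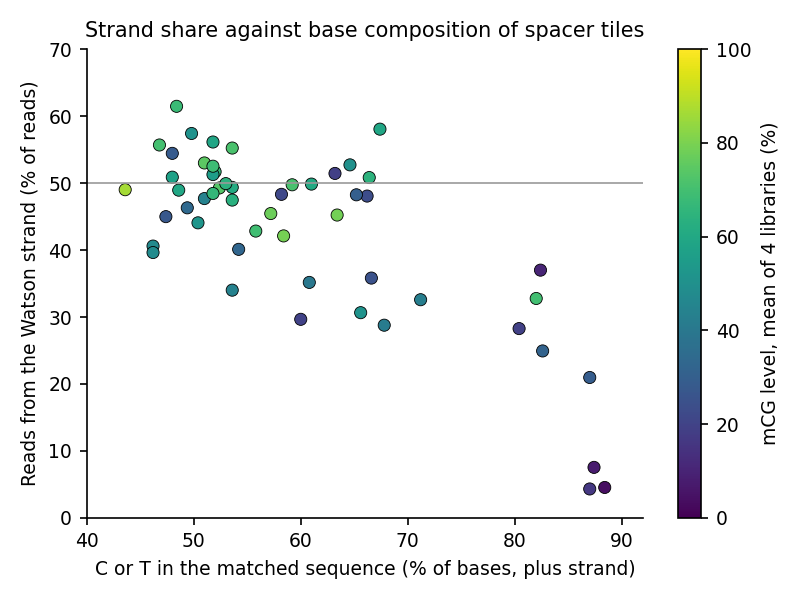
Each point is 1 of the 53 spacer tiles with matched sequence, with the share of C or T in that sequence (percent of bases) on the horizontal axis, the share of reads from the Watson strand (percent of reads) on the vertical axis and the mean mCG level of the 4 libraries as colour. The 8 tiles over 80% C or T have Watson shares of 4.31 to 37%, and the grey line marks equal shares.

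Both strands of a CpG gave much the same level elsewhere. Over the whole spacer the Watson level was 58.4%, 57.1%, 57.4% and 54.5% and the Crick level 55.9%, 55.3%, 54.6% and 52.4% (WT 1, WT 2, ZNF274KO 1, ZNF274KO 2). The groups overlapped on the Watson strand (-1.81 points) and not on the Crick strand (-2.12 points). Of 1108 CpGs read at least 20 times on each strand in each library, 923 differed by at most 5 points between strands and 9 by over 20 points, with a median of 1.97 points. The largest of these were at 14417 and 14413, in the terminator repeats, where the Watson level over all libraries exceeded the Crick level by 25.4 and 25 points, and at 32709, by 24.7 points (90.8% on Watson, 66.1% on Crick).

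Most single CpGs of the spacer were partly methylated. Of the 1186 CpGs that had 20 or more reads in each library, 58, 65, 68 and 78 were under 10% (WT 1, WT 2, ZNF274KO 1, ZNF274KO 2), and 129, 125, 105 and 81 were over 90%. The counts under 10% were thus higher, and those over 90% lower, in both ZNF274KO libraries. In both counts, however, ZNF274KO 1 lay closer to WT 2 than to ZNF274KO 2. Such counts were not taken over all CpGs of the series. The remaining 84.0 to 86.6% lay between. Over all 1186 CpGs the levels formed a broad group at low and another at high levels, the latter reaching past 90%. In WT 1, for example, 324 CpGs had levels of 20 to 40%, 198 had 40 to 60% and 305 had 75 to 95%. The median level was 51.9%, 50.2%, 50.8% and 47.3%.

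**Figure D5:**
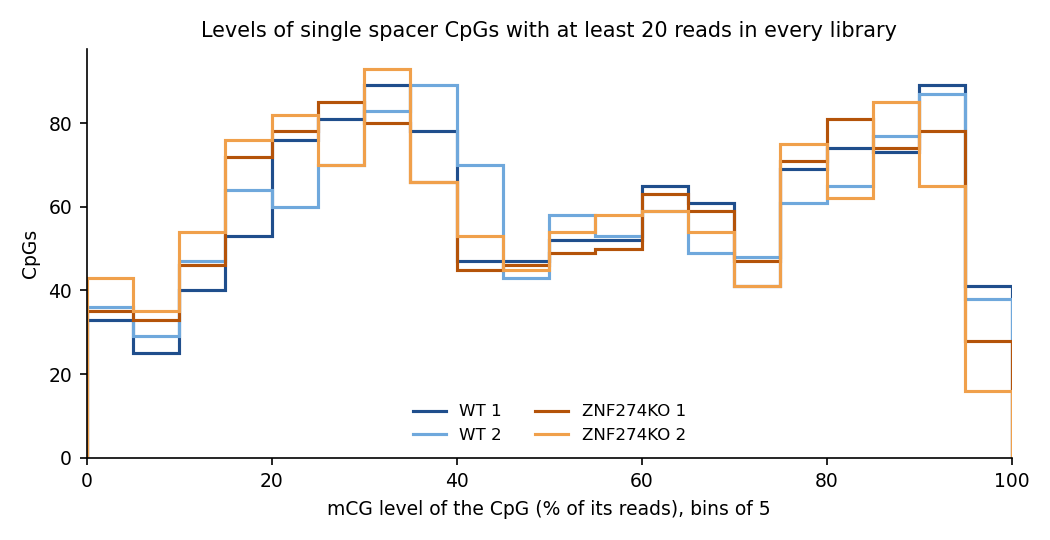
The horizontal axis gives the mCG level of a CpG (percent of its reads, bins of 5) and the vertical axis the number of the 1186 spacer CpGs in each bin, with a line for each library. All 4 lines show a group of CpGs near 20 to 40% and another at 75 to 95%, and the ZNF274KO libraries have fewer CpGs over 90% (105 and 81, against 129 and 125 in WT).

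The mean of the ZNF274KO libraries was lower at 918 of these CpGs (77.4%), with a median difference of -1.70 points. The share over all CpGs of the series was not computed, and these CpGs share reads and 4 libraries. Of the 51 spacer tiles, 48 were lower in ZNF274KO. With a library left out this ran from 35 (without ZNF274KO 2) to 50 (without ZNF274KO 1 or WT 2). The largest falls were in tile 1, at 13653, 13635 and 13571. At 13653 the levels were 34.3%, 37.5%, 6.90% and 18.4% (WT 1, WT 2, ZNF274KO 1, ZNF274KO 2) at 29 to 38 reads, a difference of -23.2 points. The other falls were -21.6 and -20.5 points, at 34 to 107 reads. The largest rise at high depth was at 17562, with 35.1%, 35.3%, 45.5% and 40.9% (7.97 points) at 335 to 527 reads, and both ZNF274KO libraries were above both WT libraries there. The other rises, of 7.64 and 7.09 points, were at 14504 and 13366 with 20 to 77 reads, and at 13366 the ZNF274KO libraries lay on either side of WT, at 20% and 58.1%. These CpGs were picked as the extremes of 1186 and carry no test of their own.

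The neighbouring bases of a CpG went with its level. CpGs preceded by G were the highest, at 64.8% in WT and 62.5% in ZNF274KO (289 CpGs), and those preceded by T the lowest, at 51.1 and 49.1% (310 CpGs). Among the full contexts, GCGC had 69.8% in WT (72 CpGs) and TCGA 40.6% (64 CpGs). The ZNF274KO mean was lower in all 16 contexts without an ambiguous base, with differences from -1.33 to -2.80 points. The 3 CpGs next to an ambiguous base of the contig were left out of this count.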

How the data were processed

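The titles gave the group and number of the EM-seq libraries of HEK293T cells, with 2 WT and 2 ZNF274KO libraries. The authors mapped the reads with Msuite2 and hisat2 to hg19 with rDNA added as a further chromosome, and deposited read counts per CpG, strand and base call for each library, neither pooled nor normalised. The methods name an NCBI rDNA sequence for Hi-C and UMI-4C but none for EM-seq, and any filter on mapping quality or duplicated reads is not given in the sources used here. A CpG without reads is not listed.

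The level was the share of C among reads with C or T, summed over strands and CpGs. Spacer reads per library, each counted at every CpG it spans, ranged from 677178 to 937949. Tiles of 500 bases of the autosomes, X and the contig with at least 20 reads and 5 CpGs in every library were tested with edgeR 4.0.16 in R 4.3.3 on methylated and unmethylated counts, with a coefficient per library and Benjamini-Hochberg adjustment over all tiles, and called at an adjusted p under 0.05. Single values per library were compared with exact two-sided permutation tests. Blocks, tiles and CpGs were named by fixed rules: all blocks; the 3 tiles highest or lowest in WT level, difference and depth; the 3 tiles with the largest gap between replicates; and the CpGs with the largest difference between groups or strands. The tiles and CpGs of the sequences shown were chosen after their values were seen. Sequence came from GRCh37, and that of some tiles is not reported here.

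Alternatives were tiles of 1000 bases, minimums of 10 and 50 reads, single strands, unweighted, median and 75th percentile summaries, a depth filter, centring on the autosomal level, limma 3.58.1 (pseudocount 1), the contig alone, a replicate block and each library left out. The members, lists and rules were chosen with earlier results of these data known. Python 3.11.15, pandas 2.3.3, scipy 1.17.1 and matplotlib 3.10.9 were used.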

Additional observations from a re-analysis of the deposited data

How the results depend on the processing

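The spacer level was lower in ZNF274KO than in WT under every alternative run, from -0.444 points (autosomal level subtracted and WT 1 left out) to -3.31 points (median of the group mean levels over the 1261 CpGs read in every library, against -2.39 over those with 20 reads), and from -0.719 (without ZNF274KO 2) to -3.23 points (without ZNF274KO 1) with a library left out. Of 84 comparisons of an alternative with a reported value, 75 kept direction and call, or stayed within 1.5 times for counts. These 75 include the spacer calls with the replicate block or a library left out, settings that could not tell the spacer from other tiles. The spacer minus transcribed difference ran from -0.884 (without ZNF274KO 1) to 5.76 points with a library left out, that of block 2 from -2.84 (without ZNF274KO 1) to 0.206 points (without ZNF274KO 2), that of block 3 from -3.02 to -0.370, of block 5 from -3.36 to -0.797 and of block 6 from -3.52 to -1.10 points (the same libraries), and that of block 4 from -2.94 (without WT 2) to -0.0868 points (without WT 1). The number of tiles with ZNF274KO below both WT libraries was 11 of 29 in tiles of 1000 bases (37.9%, against 19.8% of all such tiles) and 15 of 51 with the autosomal level subtracted (29.4%, against 17.6% of all tiles). With a library left out it was 23 to 47 of 51: 23 without WT 1 (45.1%, against 38.5% of all tiles), 41 without WT 2 (80.4%, against 35.5%), 47 without ZNF274KO 1 (92.2%, against 39.9%) and 23 without ZNF274KO 2 (45.1%, against 32.3%). The number with ZNF274KO above was 0 to 7 with a library left out, highest without ZNF274KO 2 (13.7%, against 33.3% of all tiles), and 1 with the autosomal level subtracted (1.96%, against 17% of all tiles). The causes were not tested. The options to leave out the first 1500 bases or the first block, or to subtract the autosomal level with a library left out, were added after seeing the data.

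Equal replicate numbers were not known to pair the libraries. The differences between numbers correlated at -0.0272 between the groups over all tiles and at 0.360 over spacer tiles. With the replicate block 0 spacer tiles were called. The block leaves the spacer difference (-1.98 points) and that of the spacer against the transcribed part (2.44 points) as they are by construction, since each group holds both numbers, so these were not counted above. Over the whole genome edgeR called 6285 tiles, against 0 with the block, 0 without any single library, 2724 by limma and 3105 with at least 50 reads, while 0 spacer tiles were called in any of these. With 2 libraries a group, no exact test could pass, and depth was lowest in the first 3 tiles tested.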
